A study of Mus musculus with 3 samples.

Results

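Classical monocytes were the 2671 barcodes, of 32215 that passed the filters, which carried the transcripts of the Ly6C-high blood monocyte. Each had at least 200 genes, at most 10% mitochondrial UMIs, at least 2 UMIs of Ly6c2, at least 2 of Plac8 and at least 5 of Lyz2. Barcodes with more than 4 UMIs of C1qa, C1qb and C1qc together were left out, as were those with 1% or more of their UMIs from S100a8 and S100a9 and those with any UMI of Cd209a, Cd79a or the Cd3 genes. There were 98 such cells of 11105 filtered barcodes in the library labelled Sham, 570 of 8831 in MI and 2003 of 12279 in MI-E. The members were thus chosen by the UMIs of these genes, so that any of their levels given below is a description only. UMIs, or unique molecular identifiers, count the RNA molecules captured from a cell.

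The cells were CD45+ leukocytes sorted from hearts of C57BL/6J mice aged 8 to 9 weeks, with 1 droplet library for each of 3 labels, read at the 3' ends of transcripts. By name, MI is the heart after myocardial infarction and Sham the operated heart without it, while the labels do not expand MI-E. The protocol attached to all 3 libraries, Sham included, describes ligation of the left anterior descending coronary artery, and it gives neither the time of sampling nor the number of hearts. Every difference below is therefore one between single libraries, and intervals cover counting error only.

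Classical monocytes leave the bone marrow through the chemokine receptor CCR2 and circulate with high surface Ly6C. In an infarcted heart they enter the injured wall early, release cytokines such as interleukin-1 beta, and can give rise to macrophages. The macrophages already resident in the healthy heart are largely maintained without them.

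Promoters of some chemokine and interferon genes named below are shown first, because these 2 gene groups differed between the libraries in different ways. The sequences are from RefSeq on GRCm38.p6, each with 120 bases on the gene's strand from 110 bases before its start. Capitals in the first 3 mark every match to the kappa B motif GGGNNTTTCC, and in the last 3 every match to the interferon-stimulated response element GAAANNGAAA, both searched on either strand. Windows are Cxcl1 at chr5:90891135-90891254 on the plus strand, Cxcl2 at chr5:90903789-90903908 on the plus strand and Cxcl3 at chr5:90785991-90786110 on the plus strand. The others are Isg15 at chr4:156200809-156200928 on the minus strand, Oas3 at chr5:120777650-120777769 on the minus strand and Gbp2 at chr3:142620553-142620672 on the plus strand.
Cxcl1: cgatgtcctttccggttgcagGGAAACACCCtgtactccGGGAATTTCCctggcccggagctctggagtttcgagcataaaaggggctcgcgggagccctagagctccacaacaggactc
Cxcl2: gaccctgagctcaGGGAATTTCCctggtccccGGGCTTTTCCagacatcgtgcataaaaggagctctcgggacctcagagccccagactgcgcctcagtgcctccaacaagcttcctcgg
Cxcl3: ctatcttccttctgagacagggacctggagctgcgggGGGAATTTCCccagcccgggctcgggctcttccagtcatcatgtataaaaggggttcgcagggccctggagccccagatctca
Isg15: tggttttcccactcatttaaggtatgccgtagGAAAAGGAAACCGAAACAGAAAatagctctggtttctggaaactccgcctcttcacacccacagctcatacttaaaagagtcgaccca
Oas3: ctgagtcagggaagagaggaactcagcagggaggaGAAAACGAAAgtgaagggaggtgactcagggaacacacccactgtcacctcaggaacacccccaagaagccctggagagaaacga
Gbp2: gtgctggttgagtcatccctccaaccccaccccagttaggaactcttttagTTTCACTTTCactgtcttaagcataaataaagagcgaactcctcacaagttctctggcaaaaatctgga

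Cxcl1 and Cxcl2 each held 2 kappa B matches within the printed window, and the first of Cxcl1 lay on the opposite strand. Isg15 held 3 overlapping matches to the interferon element in 1 run, and the match of Gbp2 lay on the opposite strand. Over 300 bases around the start, from 250 before to 50 after, the kappa B letters occurred in 535 of 32851 promoters in the table (1.63%) and those of the interferon element in 1131 (3.44%). Counted by gene, as the lists are below, these shares were 1.89% and 3.99%. Of 24 inflammatory cytokine genes listed for these cells, 17 had a promoter in the table and 6 of them held the kappa B letters, namely Ccl9, Cxcl1, Cxcl2, Cxcl3, Il1rn and Il6. Of 26 interferon response genes, 20 were matched and 11 held the interferon element, among them Isg15, Oas3, Rsad2 and Ifit1. Irf7 was not among these 11. A match describes these letters and does not show a bound site.

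Classical monocytes were scarce in the Sham library and made up a larger share of cells in MI and again in MI-E. In Sham they were 0.882% of filtered barcodes (exact Clopper-Pearson 95% interval 0.717 to 1.07). The MI library had 6.45% (5.95 to 6.99) and the MI-E library 16.3% (15.7 to 17.0). The MI share was 7.31 times the Sham share (5.89 to 9.16) and the MI-E share 2.53 times the MI share (2.30 to 2.78). Because the rule counts UMIs and the libraries differed in depth, the shares were also read in barcodes of at least 3000 UMIs only, which left 5149, 8012 and 9291 barcodes of Sham, MI and MI-E and 97, 568 and 1989 members. At their own depth the shares of these barcodes were 1.88%, 7.09% and 21.4%, so that MI had 3.76 times the Sham share and MI-E 3.02 times that of MI. After thinning each of them to 3000 UMIs the shares were 1.17%, 4.08% and 18.0% and the ratios 3.50 and 4.40. The order of the libraries was the same on all 3 scales.

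**Figure D1:**
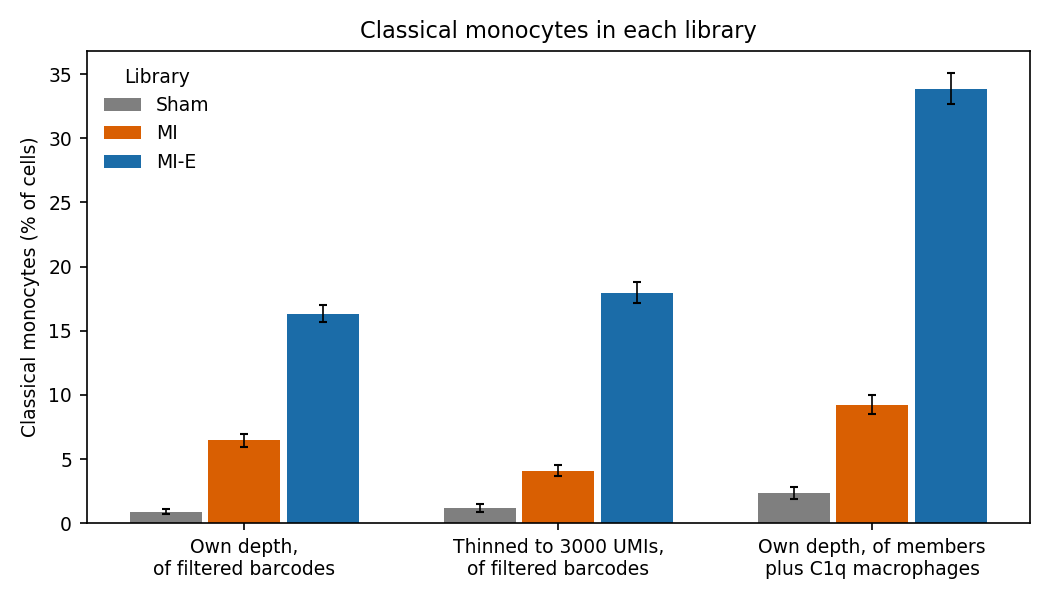
Share of classical monocytes in each library, in percent of cells, at each barcode's own depth, in barcodes of at least 3000 UMIs thinned to that number, and as a share of classical monocytes plus C1q macrophages. Bars are the shares and lines their exact 95% intervals, which cover counting error; MI-E is highest on all 3 scales, at 16.3%, 18.0% and 33.8%.

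Against other myeloid cells the order was the same. C1q macrophages, Lyz2-positive cells with at least 5 C1q UMIs, numbered 4101, 5620 and 3915 in Sham, MI and MI-E, and classical monocytes made up 2.33%, 9.21% and 33.8% of both populations together. Treml4 monocytes, the patrolling nonclassical type, were chosen by at least 2 Treml4 and at most 1 Ly6c2 UMIs and numbered 47, 34 and 51. Of classical and Treml4 monocytes together, the classical cells were 67.6%, 94.4% and 97.5%. The C1q limit decided many cells in MI and MI-E: without it 103, 1395 and 3210 barcodes passed, or 0.928%, 15.8% and 26.1% of the filtered barcodes. By that looser rule the MI-E share was 1.65 times the MI share.

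The thresholds of the rule cut through a continuum. In Sham, MI and MI-E, 25, 114 and 167 members held exactly 2 Ly6c2 UMIs, while 26, 170 and 247 barcodes met all other limits with exactly 1. Chil3, which was not used, stood at 3250.0, 827 and 1368 CPM in the first set and at 1792, 714 and 1329 CPM in the second (CPM: the UMIs of a gene in each 1000000 UMIs summed over the cells). Cells with 3 or 4 C1q UMIs inside the limit numbered 1, 78 and 298, and those with 5 or 6 outside it 0, 33 and 86.

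Depth per member was closer between the libraries than depth per barcode. The libraries held 41140109, 98814001 and 104562768 UMIs in 11357, 9095 and 12707 barcodes of Sham, MI and MI-E, with medians of 2727, 9604 and 7287 UMIs per barcode. The members' own medians were 6572, 8134 and 7887 UMIs, and their summed UMIs were 646786, 5429022 and 16990421, so that Sham levels carry the widest intervals. Scrublet marked 0, 18 and 26 members as doublets. Of the barcodes shared by name between libraries (35 for Sham and MI, 45 for Sham and MI-E, 26 for MI and MI-E), 1 was a member in both of its libraries.

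Chil3 and Vcan, markers of classical monocytes that the rule did not use, were higher in the chosen cells than in C1q macrophages of the same library. Ly6c2, the surface antigen of the rule, was at 1065, 698 and 1618 CPM in Sham, MI and MI-E, against 2.94, 97.3 and 290 CPM in C1q macrophages. Chil3, a chitinase-like secreted protein, was at 2712, 964 and 1936 CPM against 10.0, 252 and 694 CPM. Vcan, a matrix proteoglycan of classical monocytes, was at 169, 172 and 185 CPM against 1.62, 21.6 and 37.0 CPM. The gap to macrophages was narrower in MI and MI-E than in Sham, and that of Ly6c2 was set by the choice of cells. Treml4 was at 41.7, 24.7 and 27.5 CPM. Ly6c2 lies on chromosome 15 at 75108158 to 75111970 (minus strand, GRCm38) and Chil3 on chromosome 3 at 106147554 to 106167564 (minus strand).

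**Figure D2:**
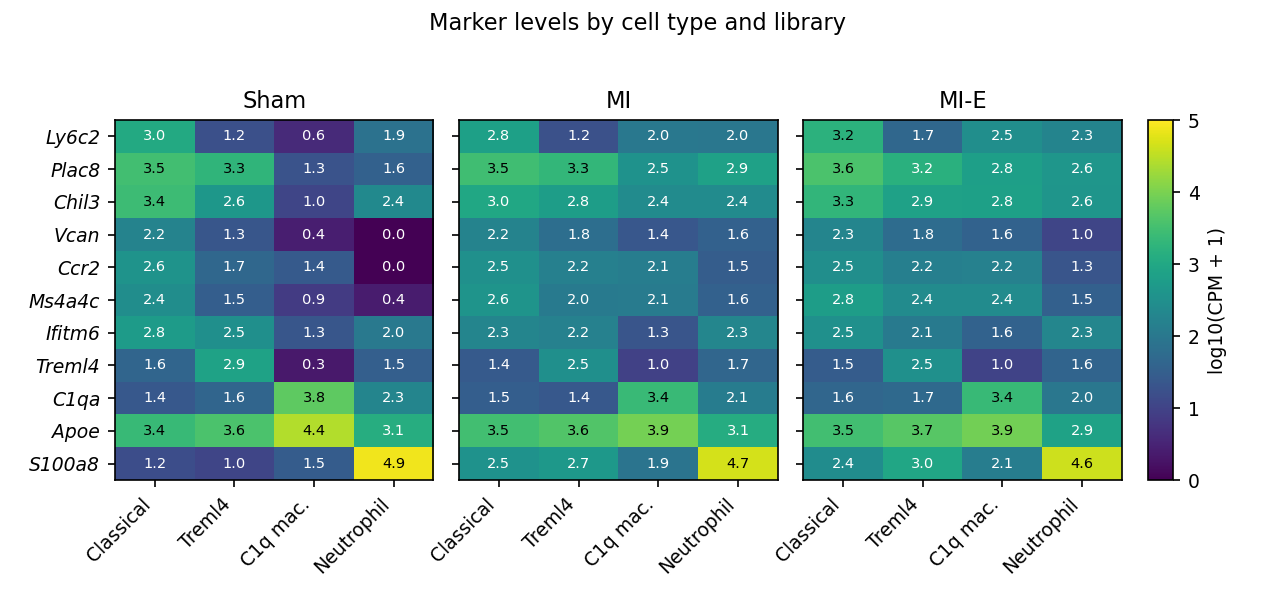
Levels of marker genes, as log10 of CPM + 1 in summed UMIs, in classical monocytes, Treml4 monocytes, C1q macrophages and neutrophils of each library. Vcan, which chose none of these cells, is between 2.2 and 2.3 in classical monocytes and at most 1.8 in the other cells, while Ly6c2, Plac8, Treml4, C1qa and S100a8 served to choose them.

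Markers of other cells moved with the library. The summed level of 12 neutrophil markers in the members was 153, 973 and 727 CPM in Sham, MI and MI-E, against 180073, 102715 and 105591 CPM in neutrophils, and Camp and Ngp were at 0 in Sham and MI. The 8 C1q macrophage markers summed to 2409, 4357 and 4210.0 CPM, most of it Apoe at 2301, 3088 and 2999.9 CPM. Apart from Apoe the highest was Pf4, at 46.4, 831 and 763 CPM. Over the 5 of these markers measured in MI over Sham, the median log2 ratio was 2.68. The 9 B cell markers summed to 110, 22.7 and 39.1 CPM, 9 T cell markers to 27.8, 54.3 and 55.6 CPM and 8 NK cell markers to 7.73, 26.5 and 22.9 CPM. The 7 fibroblast markers summed to 3.09, 161 and 153 CPM, with 5 of them at 0 in Sham, and 5 red blood cell genes to 41.7, 11.6 and 178 CPM. The part of such RNA in the differences below was not tested. For some of the genes, the share of members with a UMI is set beside that in B cells (Cd79a) or T cells (Cd3), which should lack most monocyte transcripts. Whether those cells make any of the RNAs themselves was not tested, and only 22 MI B cells reached 3000 UMIs.

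Between MI and Sham, many inflammatory cytokine, MHC class II and repair genes of classical monocytes stood higher in MI. A gene was called where its CPM differed by at least 2-fold, among genes with at least 50 CPM in the higher library. By that rule 250 of 2664 genes (9.38%) were higher in MI and 144 (5.41%) lower, or 14.8% either way. When mitochondrial and ribosomal protein genes were left out of the totals, 264 were higher and 223 lower, and the median log2 ratio of all genes went from 0.05 to −0.06. The members' UMIs were 21.8%, 17.9% and 15.5% ribosomal in Sham, MI and MI-E.

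Of 21 measured inflammatory cytokine genes, 18 were at least 2-fold higher in MI, against 9.38% of all genes, and the list's median log2 ratio was 2.27. Il1b, which encodes interleukin-1 beta, was at 1034, 4794 and 4942 CPM in Sham, MI and MI-E. The MI level was 4.63 times that of Sham (4.29 to 5.01), and MI and MI-E lay close together. At 3000 UMIs, 70.1%, 87.7% and 90.0% of members held an Il1b UMI, against 18.6%, 36.4% and 51.2% of B cells, whose own median depths were 2338, 2496.5 and 2322.5 UMIs and of which 661, 22 and 123 reached 3000 UMIs.

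Ptgs2, the inducible cyclo-oxygenase of prostaglandin synthesis, was at 145, 842 and 887 CPM, 5.79 times higher in MI than in Sham (4.72 to 7.18). A UMI of it was found in 25.8%, 64.4% and 67.9% of members and in 4.24%, 13.6% and 37.4% of B cells. Nlrp3, the inflammasome sensor, was at 175, 723 and 495 CPM, a ratio of 4.14 in MI over Sham (3.43 to 5.03). Both genes were low in Sham and high in MI and MI-E, and Nlrp3 had its peak in MI. Il1rn, the interleukin-1 receptor antagonist, was at 91.2, 529 and 611 CPM, 5.80 times higher in MI (4.48 to 7.64).

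Among the chemokines, Cxcl2, which draws neutrophils, was at 2755, 23191 and 21486 CPM in Sham, MI and MI-E, a ratio of 8.42 in MI over Sham (8.03 to 8.83). Cxcl3, also on chromosome 5, was at 128, 1012 and 724 CPM, 7.89 times higher in MI (6.35 to 9.92). Ccl2, the ligand of CCR2, was at 472, 1914 and 1681 CPM, a ratio of 4.06 (3.62 to 4.56). The highest ratios of the list belonged to genes almost absent from Sham members. Cxcl1 was at 6.18, 687 and 507 CPM and Ccl7 at 15.5, 971 and 853 CPM. At 3000 UMIs a Cxcl1 UMI was present in 31.9% of MI members but also in 40.9% of MI B cells, a share that rests on 22 cells. The part of free RNA in the Cxcl1 level was not tested. Ccl6, Ccl9 and Il18 were the measured cytokine genes that were not called.

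Cytokine genes differed in another way in C1q macrophages of the same libraries. In these macrophages 15.5% of genes were called higher and 12% lower in MI than in Sham. Of 20 cytokine genes 4 were higher and 4 lower, with a median log2 ratio of 0.16. Cxcl2 was at 18276, 13046 and 14059.6 CPM in macrophages of Sham, MI and MI-E, so that the Sham level was already high there. Il1b was at 970, 1151 and 1707 CPM. With members restricted to those without a C1q UMI, the cytokine median of classical monocytes was 2.23.

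**Figure D3:**
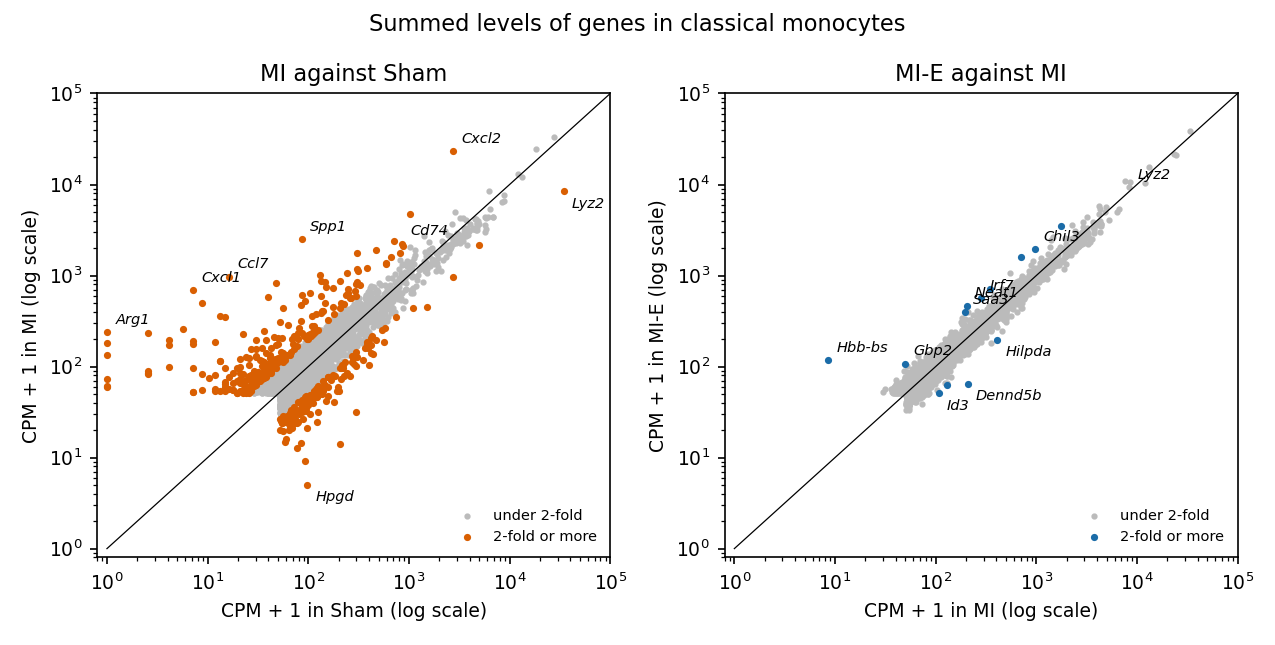
Level of each measured gene, as CPM + 1 on log axes, in classical monocytes of MI against Sham and of MI-E against MI. Coloured points differ by at least 2-fold (394 genes on the left, 13 on the right) and the diagonal marks equal levels.

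MHC class II genes, which present antigen to CD4 T cells, were higher in MI and MI-E than in Sham. Of 6 measured members 5 were called higher in MI and 5 in MI-E, with median log2 ratios to Sham of 1.86 and 1.69. H2-Aa was at 85.0, 614 and 636 CPM in Sham, MI and MI-E, 7.22 times higher in MI than in Sham (5.53 to 9.60). H2-Eb1 was at 102, 636 and 507 CPM, a ratio of 6.24 (4.89 to 8.08). H2-DMa, a peptide-loading chain, was the member not called, at 209, 201 and 184 CPM. At 3000 UMIs H2-Aa was seen in 6.19%, 34.7% and 32.5% of members and in 16%, 15.5% and 18.4% of T cells, so that the Sham share was below that background and the other shares above it. In C1q macrophages all 6 measured members were lower in MI than in Sham, with a median log2 ratio of −2.93, and H2-Eb1 was at 4419, 487 and 421 CPM. H2-Eb1 thus stood higher in macrophages than in monocytes in Sham, and slightly lower in MI and MI-E.

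Genes that monocytes gain as they become macrophages were partly higher in MI and MI-E. Of 14 measured maturation genes 9 were called higher in MI and none lower, with a median log2 ratio of 1.36. Ctsd, a lysosomal aspartic protease, was at 306, 1176 and 1308 CPM, and Ctsl, a lysosomal cysteine protease, at 206, 865 and 895 CPM. Fcgr1, the high-affinity IgG receptor, was at 131, 383 and 544 CPM. Trem2, a lipid-sensing receptor, was at 77.3, 232 and 184 CPM. These genes were low in Sham and high in both other libraries. Csf1r, the receptor for the macrophage growth factor CSF1, was not called, at 323, 232 and 270 CPM. Ms4a7, a membrane protein of macrophages, was at 4.64, 257 and 253 CPM. In C1q macrophages of Sham and MI, Ctsd was at 349 and 4116 CPM, Ctsl at 484 and 1422 CPM and Ms4a7 at 466 and 725 CPM. Of 17 maturation genes measured in those macrophages 6 were higher in MI and 5 lower, with a median log2 ratio of −0.14. The part of free macrophage RNA in the members' levels of these genes was not tested.

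Of 13 measured repair and matrix genes 9 were called higher in MI, with a median log2 ratio of 1.88 that turned to −0.14 when only genes of at least 200 CPM were counted. Tgfbi, a matrix protein induced by TGF-beta, was at 314, 1135 and 1149 CPM in Sham, MI and MI-E. Arg1, the enzyme that splits arginine into ornithine and urea, was not counted in Sham and stood at 240 and 242 CPM in MI and MI-E, at least 51.7-fold and 52.1-fold higher against the 3 UMIs that a count of 0 allows over the Sham members. Its share of members at 3000 UMIs was 0%, 22.2% and 17.7%, against 0%, 9.09% and 15.4% in B cells, so that MI-E lay near background. Spp1, osteopontin, was at 85.0, 2515 and 2282 CPM, but 50% of MI and 70.7% of MI-E B cells held a UMI of it beside 69.4% and 76.2% of members. Anxa1, an anti-inflammatory phospholipid-binding protein, was at 601, 319 and 268 CPM and was called lower in MI-E against Sham. C1q macrophages went the same way as the members, with 11 of 18 measured repair and matrix genes higher in MI than in Sham and 3 lower. Their median log2 ratio for this list was 1.48.

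Genes of the classical state itself were partly lower in MI than in Sham. Of 15 measured genes of the list that the rule did not use, 5 were called lower and none higher, with a median log2 ratio of −0.36, against 5.41% of all genes called lower. With Ly6c2, Plac8 and Lyz2, which the rule used, 6 of 18 were lower, the addition being Lyz2 at 34387, 8384 and 9391 CPM in Sham, MI and MI-E. Ifitm6, an interferon-inducible membrane protein of monocytes, was at 566, 188 and 321 CPM, 3.02-fold lower (2.67 to 3.40), and Chil3 was 2.81-fold lower (2.66 to 2.97). Mgst1, a microsomal glutathione transferase, was at 436, 137 and 179 CPM. All of these were highest in Sham and lowest in MI. Vcan and Ccr2 were not called, with ratios of 1.02 (0.835 to 1.26) and 0.875 (0.763 to 1.01).

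Itga4, the alpha chain of the integrin VLA-4, was at 195, 59.1 and 47.8 CPM, and Plaur, the urokinase receptor, at 1499.7, 455 and 361 CPM, both lower in MI and MI-E than in Sham. Of 15 measured entry and adhesion genes 2 were called higher in MI, among them the tetraspanin Cd9, and 2 lower, counts close to the shares of all genes. Of 16 Fc and complement receptor genes 5 were higher, among them C3ar1, the receptor for complement fragment C3a, at 12.4, 115 and 122 CPM. Of 17 measured glycolysis and hypoxia genes 8 were higher in MI, such as Tpi1, triose phosphate isomerase, at 61.8, 285 and 204 CPM. None of 21 oxidative phosphorylation genes was called in the members of MI against Sham. In C1q macrophages 13 of 17 measured glycolysis and hypoxia genes were higher in MI and 1 lower, and 9 of 21 oxidative phosphorylation genes were higher.

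Genes known to be induced when tissue is dissociated were mixed. Of 18 measured dissociation and heat shock genes 4 were higher in MI (Egr1, Fosb, Ier3 and Nfkbia) and 2 lower, with a median log2 ratio of −0.16. Over all genes 9.38% were higher and 5.41% lower. Hspa1a and Hspa1b, inducible heat shock proteins, were at 298, 30.4 and 55.5 CPM and at 206, 13.3 and 22.2 CPM, highest in Sham. C1q macrophages were not mixed: 18 of 20 measured genes of this list were lower in MI than in Sham and 0 higher, with a median log2 ratio of −2.04. The cause of that difference between the libraries was not tested.

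**Figure D4:**
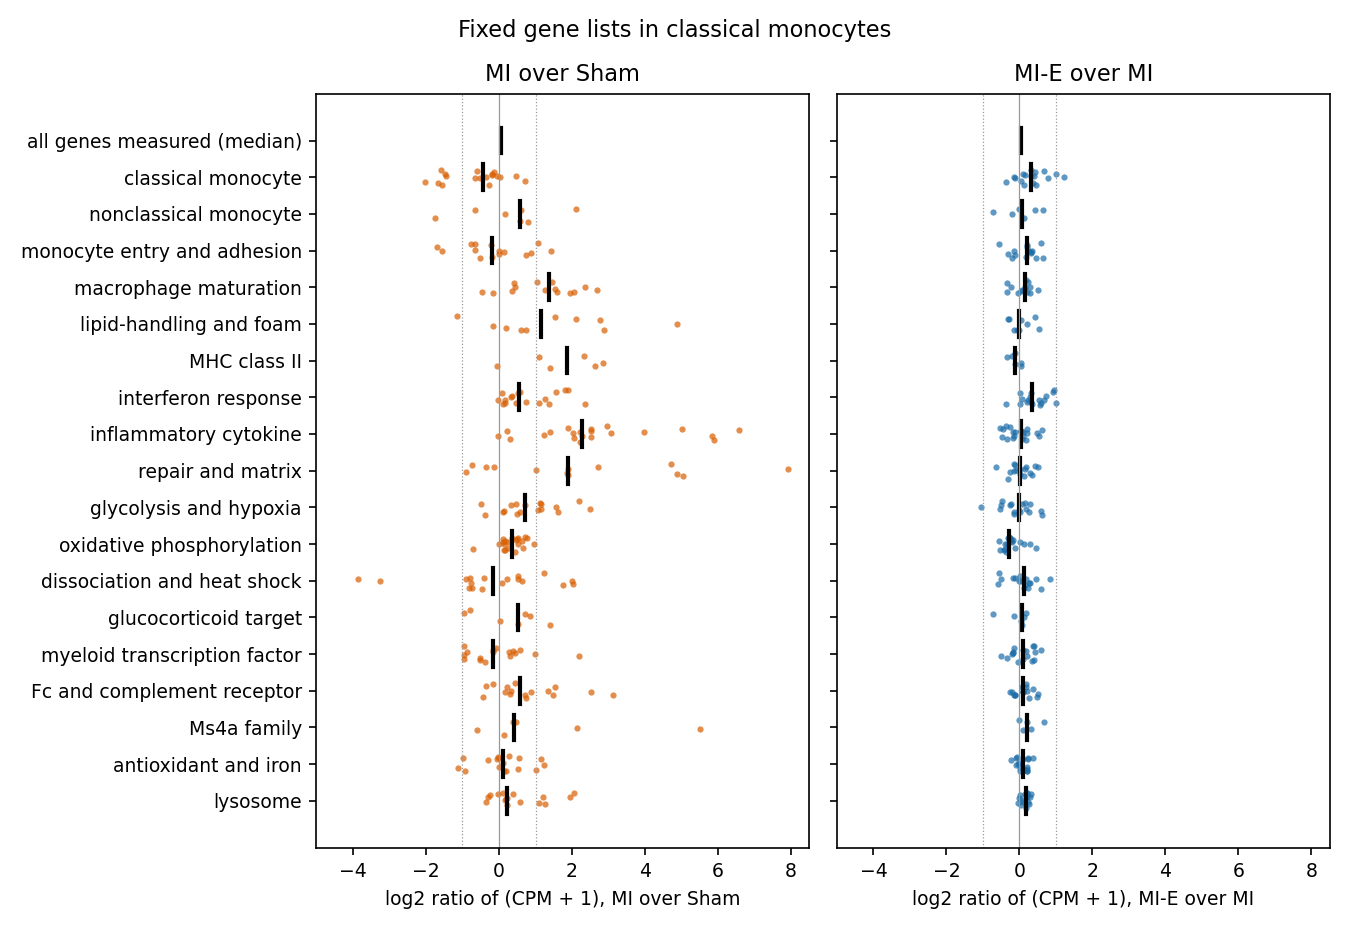
Log2 ratios of CPM + 1 for the measured genes of each fixed list, 1 point per gene, in classical monocytes of MI over Sham and of MI-E over MI. Black bars are medians and dotted lines mark 2-fold; the cytokine median is 2.27 on the left and 0.03 on the right.

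The genes with the highest MI over Sham ratios by the naming rule included several secreted proteins. Saa3, an acute-phase serum amyloid, was at 3.09, 194 and 394 CPM across Sham, MI and MI-E. Of the members, 0%, 17.8% and 26.4% held a UMI at 3000 UMIs, against 0%, 4.55% and 10.6% of B cells. Igfbp6, a binding protein of insulin-like growth factors, was at 0, 132 and 89.6 CPM and was seen in 30.8% and 23.2% of MI and MI-E members beside 9.09% and 12.2% of B cells. Ly6a, of the Ly6 family list, was at 0, 181 and 339 CPM, but B cells held it at least as often, in 50% and 55.3%. Dab2, an endocytic adaptor, went from 3.09 CPM in the Sham members to 173 CPM in those of MI. AA467197, Ccl12 and Wfdc21 were also among the highest 10. Against Sham, MI-E had Ccl8 at 83.1 CPM and Sparc at 69.9 CPM, both with no Sham UMI, and at 3000 UMIs Sparc was in 3.52% of MI-E members and 6.50% of B cells.

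The genes with the lowest MI over Sham ratios were led by Hpgd, which breaks down prostaglandins, at 95.9, 4.05 and 4.36 CPM and in MI 23.7-fold under Sham (14.3 to 40.4). Rbks, ribokinase, had 75.8 CPM in the Sham library against 11.6 CPM in that of MI. Rasgrp2, an exchange factor that activates the small GTPase Rap1, was at 179 and 39.6 CPM. Cd300a, an inhibitory receptor, was at 402 and 104 CPM, and Trf, transferrin, at 203 and 52.7 CPM. All were thus lower in MI than in Sham. In C1q macrophages of Sham and MI, Hpgd was at 427 and 14.1 CPM and Trf at 841 and 112 CPM, so that both were also lower in MI there. Rbks was at 5.33 and 6.99 CPM in those macrophages, Rasgrp2 at 17.3 and 21.9 CPM and Cd300a at 80.3 and 63.0 CPM. The part of free macrophage RNA in the members' levels was not tested. The other names by this rule were Stxbp6, Pdlim1, Camkk2, Mbp and Ramp1, and for MI-E against Sham Gdpd3 and Churc1 joined Hpgd, Rbks and Stxbp6 as the lowest.

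MI-E against Sham gave counts close to those of MI against Sham, with which it shares the Sham library. Of 2673 genes 295 (11%) were higher and 144 (5.39%) lower, or 16.4% either way. Without mitochondrial and ribosomal protein genes in the totals, 286 were higher and 240 lower. The same 18 cytokine genes were called in both comparisons, an overlap that is not independent because both use the same Sham members. Of the 15 classical monocyte genes that the rule did not use 2 were higher in MI-E, F10 (coagulation factor X) with 187 CPM against 383 CPM and Ms4a4c with 278 CPM against 614 CPM, and 2 were lower, among them Mgst1.

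MI-E and MI were close. Of 2525 genes 9 (0.356%) were at least 2-fold higher in MI-E and 4 (0.158%) lower, or 0.515% either way, and none of the 21 cytokine or 6 class II genes was called. The 9 include Ly6c2, by which the rule chose the members, at a ratio of 2.32 (2.24 to 2.40). Chil3 was 2.01 times higher in MI-E (1.95 to 2.07), the 1 call among 14 classical genes that the rule did not use, and their median log2 ratio was 0.33 beside 0.03 for all genes. With 10 CPM added to both levels 4 genes remained higher (Hbb-bs, Ly6c2, Neat1 and mt-Nd2) and 2 lower (Hilpda and Dennd5b). Chil3, Saa3, Irf7, Gbp2, mt-Atp6, Hopx and Id3 fell just under 2-fold. At 3000 UMIs Chil3 was in 79.4%, 72.5% and 84.3% of Sham, MI and MI-E members and in 1.06%, 22.7% and 47.2% of B cells. The MI-E level of Saa3 was 2.03 times that of MI (1.90 to 2.17). Neat1, a nuclear long non-coding RNA, was at 421, 202 and 465 CPM, so that MI was the low library. Hbb-bs, a haemoglobin gene and a marker of red blood cells, was at 29.4, 7.55 and 116 CPM, and the mitochondrial genes mt-Nd2 and mt-Atp6 were also called.

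Some interferon genes were higher in MI and more in MI-E, each against the same Sham library. Of 18 measured members 7 were called higher in MI than in Sham (median log2 ratio 0.56), 11 in MI-E than in Sham (1.16) and 1, Irf7, from MI to MI-E (0.33). Over all measured genes, 9.38%, 11% and 0.356% were called higher in these comparisons. Irf7, the transcription factor that amplifies the type I interferon response, was at 266, 283 and 567 CPM. Its MI over Sham ratio was 1.06 (0.909 to 1.25) and its MI-E over MI ratio 2.00 (1.90 to 2.11), so that MI-E alone was high. At 3000 UMIs Irf7 was in 27.8%, 42.3% and 71.5% of members and in 8.32%, 36.4% and 46.3% of B cells. The MI share was close to that of MI B cells, of which 22 were counted. Whether B cells make Irf7 themselves was not tested.

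Isg15, a ubiquitin-like modifier, was at 326, 776 and 947 CPM, with most of its difference between Sham and MI (ratio 2.38, 2.07 to 2.75). Rsad2, the antiviral protein viperin, was at 49.5, 177 and 207 CPM. Oas3, a sensor of double-stranded RNA, was at 23.2, 50.8 and 99.5 CPM and Zbp1, a sensor of nucleic acids in the Z form, at 164, 210 and 395 CPM. Their MI-E over MI ratios of 1.96 and 1.88 were just under the call. Gbp2, an interferon-inducible GTPase that was outside the list, was at 23.2, 48.6 and 107 CPM, with MI-E 2.20 times MI (1.93 to 2.51), and at 3000 UMIs it was in 12.5% and 22.5% of MI and MI-E members beside 9.09% and 5.69% of B cells. In C1q macrophages 0.807% of genes were called higher from MI to MI-E, and Irf7 was among them at a ratio of 2.25. Gbp2 lay under the 50 CPM needed there, at 17.6 and 39.9 CPM. Irf7 lies on chromosome 7 at 141262706 to 141266481 (minus strand, GRCm38).

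The 4 genes lower in MI-E than in MI were Hilpda, Hopx, Id3 and Dennd5b. Hilpda, a hypoxia-inducible protein of lipid droplets, was at 136, 406 and 196 CPM in Sham, MI and MI-E, with MI-E 2.07-fold below MI (1.96 to 2.18). Id3, an inhibitor of helix-loop-helix transcription factors, was at 106 and 50.4 CPM in MI and MI-E and Hopx, a homeodomain-only protein, at 128 and 62.3 CPM. Dennd5b was at 305, 207 and 63.6 CPM, 3.26-fold lower (2.99 to 3.54). At 3000 UMIs it was in 15.3% and 8.20% of MI and MI-E members and in 18.2% and 12.2% of B cells, so that B cells held it at least as often. In C1q macrophages Hilpda was 1.42-fold and Dennd5b 1.51-fold lower, under the call. Next by the naming rule, and not called, were Cfb, AY036118 and Ly6a (higher) and Tnfsf9, Erh, Mrps28, Fam162a, Rgcc and Churc1 (lower).

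Within MI and MI-E, members that held an Arg1 UMI were compared with those that did not, at 3000 UMIs per cell. There were 126 and 442 such cells in MI and 352 and 1637 in MI-E, while none of 97 Sham members held one. In MI 2.4% of measured genes were at least 2-fold higher and 1.61% lower in Arg1-positive cells, and in MI-E 1.74% and 1.2%. Both classes come from 1 library, so the values describe variation among its cells.

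Arg1-positive members held more RNA of some chemokine and macrophage genes and less of some blood monocyte genes. Ccl7 was at 1841 CPM in Arg1-positive and 568 CPM in Arg1-negative cells of MI, and at 1955 and 531 CPM in those of MI-E, 3.24 and 3.68 times higher. Ccl2 was 2.16 times higher in MI (2.01 to 2.33) and 2.67 times in MI-E (2.57 to 2.79). Il1b was nearly level, with ratios of 0.885 and 0.998. Of 21 measured cytokine genes 5 were called higher in Arg1-positive cells of MI and 8 in those of MI-E, with none lower.

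Ms4a7 was at 444 CPM in Arg1-positive and 150.1 CPM in Arg1-negative cells of MI, and at 438 and 184 CPM in those of MI-E. Of 15 measured macrophage maturation genes 3 were called higher in MI and 4 in MI-E. On the monocyte side, Ifitm6 was at 82.0 CPM in Arg1-positive and 242 CPM in Arg1-negative cells of MI, and at 142 and 392 CPM in those of MI-E. Mgst1 was 2.77-fold lower in MI and 2.44-fold lower in MI-E, and Hp, haptoglobin, 2.19-fold and 2.97-fold. Of 17 measured classical monocyte genes, 4 were called lower in each library and 1, Fn1 (fibronectin), higher. Of all measured genes 1.61% were lower in MI and 1.2% in MI-E. The 17 include Ly6c2, Plac8 and Lyz2, which the rule used, and were not counted without them.

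The class II genes differed between the libraries in how they split, a difference that was not tested. H2-Aa was at 460 CPM in Arg1-positive and 621 CPM in Arg1-negative cells of MI, under the call, and at 263 and 677 CPM in those of MI-E, 2.57-fold lower. None of 6 measured members was called in MI and 5 were called lower in MI-E, with median log2 ratios of −0.49 and −1.18. Interferon genes were nearly level, with medians of 0.06 and −0.13.

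**Figure D5:**
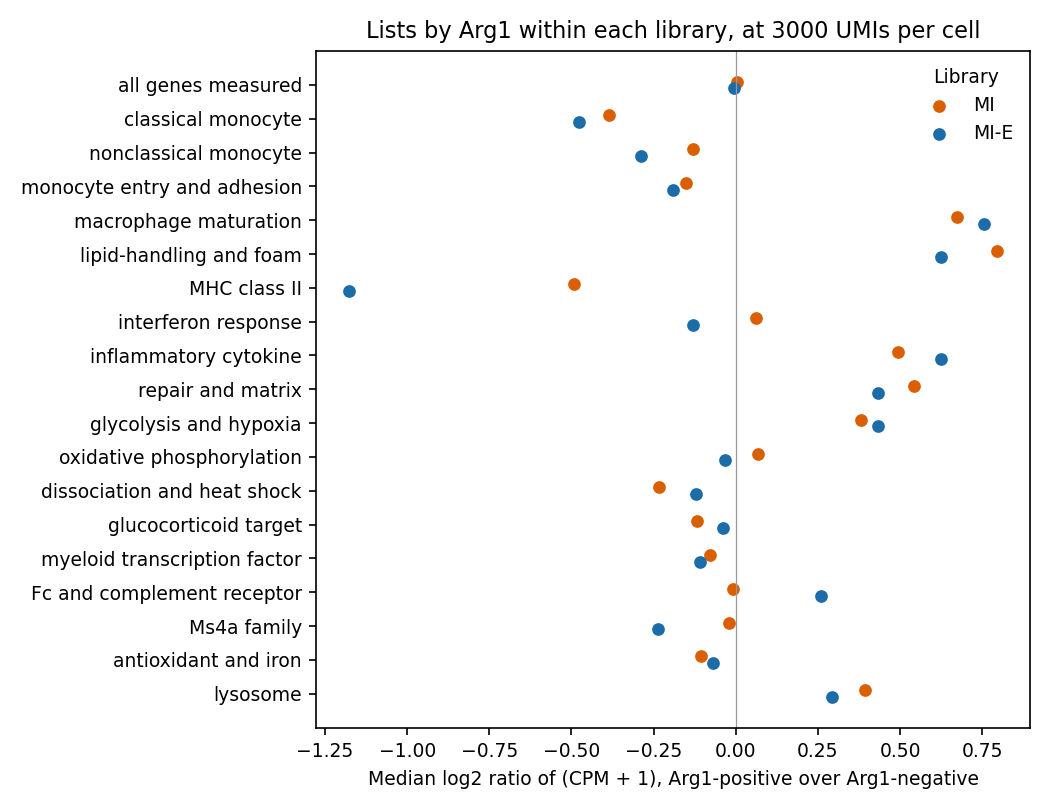
Median log2 ratio of CPM + 1 of each fixed list in members with an Arg1 UMI over members without, in MI and MI-E at 3000 UMIs per cell. The class II list lies left of 0, at −0.49 and −1.18, and the cytokine list right of it, at 0.49 and 0.62.

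Other values moved with this split. The Arg1-positive cells were deeper, with medians of 9666 and 7867.5 UMIs in MI and 8693 and 7783 UMIs in MI-E before thinning. Of the C1q macrophage markers 3 of 5 measured were called higher in Arg1-positive cells of MI and 3 of 6 in those of MI-E. The 3 measured red blood cell genes were also higher in MI-E, with a median log2 ratio of 4.60. Their part in the split, and that of free Arg1 RNA, was not tested.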

How the data were processed

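CD45+ heart leukocytes were measured in 3 single-cell RNA libraries, 1 per group. Reads were processed with Cell Ranger 5.0.1 on mm10, per the submitters' processing notes. The authors deposited raw UMI counts as whole numbers per gene and called barcode, and for their annotation release the sources used here give no name. Gene positions are from GENCODE on GRCm38.

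Barcodes were kept from 200 genes upwards and up to 10% mitochondrial UMIs. The members' UMIs were summed per library and scaled to CPM. A call is a CPM ratio of at least 2 among genes with at least 50 CPM in the higher library. List medians are of log2(CPM + 1) ratios. Intervals are exact and at 95%, conditional Poisson for ratios and Clopper-Pearson for shares. With 1 library per group no test was made. For shares, cells of at least 3000 UMIs were thinned once to that number, with a fixed seed, and shallower cells left out. Doublets were scored with Scrublet in scanpy 1.11.5 and kept, with an alternative without them. The calculations were tested on simulated data, and used Python 3.11.15, numpy 2.4.6, scipy 1.17.1 and pandas 2.3.3, with edgeR 4.0.16 for TMM factors only.

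Named genes are the 10 highest and 10 lowest ratios of MI over Sham and MI-E over MI and the 5 and 5 of MI-E over Sham, among genes held by at least 5% of the members, and up to 4 per list. Left out were genes of the rule, mitochondrial, ribosomal, haemoglobin, immunoglobulin and receptor genes, predicted models, other cell types' markers, and genes under 10% of their level in neutrophils, B cells, T cells or macrophages. The remaining called genes of MI-E over MI and list genes beyond the first 4 were named after their values were seen. Some listed genes are counted in their lists but not reported here. The members and lists were chosen with earlier results of these data known.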

Additional observations from a re-analysis of the deposited data

How the results depend on the processing

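No paired analysis was possible because each group has 1 library. For Sham, MI and MI-E, the share of classical monocytes was 1.13%, 8.75% and 19.0% with at least 1 UMI of Ly6c2 and Plac8, 0.540%, 4.04% and 13.4% with at least 4, 0.630%, 2.65% and 5.16% with no C1q UMI, 2.33%, 9.21% and 33.8% of members plus C1q macrophages, 1.17%, 4.08% and 18.0% at 3000 UMIs and 0.330%, 1.76% and 9.52% at 1500 UMIs. The counts of called genes followed the filter. With no filter, 5233 genes were higher and 1731 lower in MI over Sham, 2952 and 1569 in MI-E over MI, and 6969 and 1737 in MI-E over Sham. At 10 CPM these were 875 and 479, 32 and 32, and 876 and 493. At 200 CPM they were 85 and 41 in MI over Sham and 100 and 37 in MI-E over Sham, with 2 lower in MI-E over MI. At 1.5-fold they were 537 and 408, 77 and 42, and 585 and 404. Without mitochondrial and ribosomal genes the lower calls were 223, 7 and 240. In MI-E over MI there were 4 higher and 2 lower genes with CPM + 10, 7 lower in members of 4000 to 15000 UMIs, 5 higher without marked doublets, 3 higher with members chosen after thinning, and 8 lower with at least 4 UMIs of Ly6c2 and Plac8. At 1500 UMIs, 16.3% of MI and 11.8% of MI-E members held Arg1. The resident macrophage list, with 2 measured genes, turned from −2.14 to 0.40 with no filter and 0.071 at 10 CPM in MI over Sham, and from −2.03 to 0.10, 0.10 and 0.11 with no filter, at 10 and at 200 CPM in MI-E over Sham. The repair list turned from 1.88 to −0.14 at 200 CPM in MI over Sham. Filters and thinning change which genes or cells are counted, and the cause of the other shifts was not tested. Leaving the rule's genes out of the classical list, a choice made after seeing the data, gave medians of −0.36, 0.33 and −0.46 for MI over Sham, MI-E over MI and MI-E over Sham. The 98 Sham members limit every ratio to Sham.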

Other observations

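Fkbp5, a co-chaperone of steroid receptors and a textbook glucocorticoid target, was at 1.55, 47.9 and 8.59 CPM in classical monocytes of Sham, MI and MI-E. The MI-E level was 5.57-fold under that of MI (interval 4.53 to 6.87), but lay under the 50 CPM needed for a call. In C1q macrophages it went from 60.2 CPM to 13.5 CPM between the same libraries. Of 15 listed glucocorticoid target genes 6 were measured in MI-E over MI and none was called, with a median log2 ratio of 0.06. Fkbp5 was chosen after its values were seen.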
